A study of Mus musculus with 8 samples.

Results

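The Fbxw13, Fbxw14, Fbxw15, Fbxw16, Fbxw18, Fbxw19, Fbxw20, Fbxw21, Fbxw22 and Fbxw24 genes belong to a rodent cluster of F-box genes on mouse chromosome 9, and their transcripts were followed in fully grown oocytes of Dicer knockout and wild-type mice. Members were taken by platform gene symbol. Of the 10 genes, 8 had a probe set with that symbol alone, 9 probe sets in all among 45101 on the array, Fbxw16 having 2. Fbxw15 and Fbxw20 had none in the annotation used here. A further probe set lists Fbxw14 together with Fbxw28 and was kept apart.

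The KO group held 4 mice with the genotype label Dicer knockout and the WT group 4 mice labelled wild-type, all females of strain 129/C57BL6 primed with eCG, a gonadotropin that drives follicle growth. RNA came from 20 oocytes of each mouse, collected with the germinal vesicle (the nucleus of the oocyte before meiosis resumes) intact and stripped of cumulus cells, and each mouse gave 1 array. The labels give neither the ages of the mice, nor the deleted part of Dicer, nor the promoter of any Cre. Signals are log2 values per probe set.

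F-box proteins are the exchangeable subunits of SCF ubiquitin ligases. The F-box binds Skp1, which joins it to the cullin Cul1 and the RING protein Rbx1, and in the Fbxw class WD40 repeats bind the protein to be ubiquitinated. The chromosome 9 genes arose by repeated duplication in rodents and are known as oocyte transcripts, while substrates of most of the encoded proteins are not known. Dicer cuts microRNAs and endogenous short interfering RNAs from their precursors, and mouse oocytes make both kinds.

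The genes lie side by side. In assembly GRCm38.p6 RefSeq places 15 Fbxw genes in this stretch, of which 10 are members and 5 are not, in the order Fbxw21, Fbxw13, Fbxw20, Fbxw14, Fbxw28, Fbxw22, Fbxw16, Fbxw19, Fbxw23, Fbxw15, Fbxw24, Fbxw25, Fbxw18, Fbxw26 and Fbxw27. The duplicated origin shows in their promoters. RefSeq windows from 250 bases before to 50 bases after the transcript start were held for 8 of the 10 members, all but Fbxw13 and Fbxw22, and the 28 pairs of these windows were 84.9% to 95.9% identical over their aligned bases (median 90.6%). Fbxw16, with 84.9% to 90.2% to the other members, and Fbxw20, with 84.9% to 90.3%, were the members farthest from the rest.

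Stretches of 144 bases of 5 of these promoters are shown, read 5′ to 3′ from the minus strand of chromosome 9 in GRCm38.p6, because they set the 2 genes that fell in KO oocytes, Fbxw16 and Fbxw19, beside Fbxw24, whose call depended on the variance model, Fbxw21, which had the smallest difference, and Fbxw20, whose letters differ most. Capitals mark the E-box in its palindromic form CAGCTG and the TATA-like motif TTTAAA. The intervals are chr9:109449161-109449304 for Fbxw16, chr9:109495900-109496043 for Fbxw19, chr9:109626081-109626224 for Fbxw24, chr9:109162043-109162186 for Fbxw21 and chr9:109234755-109234898 for Fbxw20.
Fbxw16: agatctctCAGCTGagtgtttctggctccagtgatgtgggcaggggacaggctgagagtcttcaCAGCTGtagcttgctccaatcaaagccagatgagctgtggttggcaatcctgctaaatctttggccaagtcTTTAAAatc
Fbxw19: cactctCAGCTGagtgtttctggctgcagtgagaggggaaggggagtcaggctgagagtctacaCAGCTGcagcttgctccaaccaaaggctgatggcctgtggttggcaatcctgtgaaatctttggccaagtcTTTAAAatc
Fbxw24: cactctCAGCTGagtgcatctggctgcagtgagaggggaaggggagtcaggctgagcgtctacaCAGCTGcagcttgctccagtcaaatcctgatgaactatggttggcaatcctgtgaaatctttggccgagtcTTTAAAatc
Fbxw21: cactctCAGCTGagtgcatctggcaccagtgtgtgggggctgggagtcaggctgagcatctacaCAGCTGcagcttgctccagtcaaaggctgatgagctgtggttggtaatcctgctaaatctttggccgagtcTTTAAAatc
Fbxw20: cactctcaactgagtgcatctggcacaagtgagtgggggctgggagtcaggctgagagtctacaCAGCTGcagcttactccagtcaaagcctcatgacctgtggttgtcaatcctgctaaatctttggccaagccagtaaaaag

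Against Fbxw16, the stretch differed by 16 substitutions in Fbxw19, 20 in Fbxw24, 18 in Fbxw21 and 23 in Fbxw20. E-boxes, CANNTG, are the sites bound by basic helix-loop-helix factors, among them FIGLA, the oocyte factor that drives zona pellucida genes. In Fbxw16 the pair of CAGCTG motifs began at -156 and -100, counted in bases from the transcript start, and the same pair stood in 7 of the 8 member windows. All 8 held at least 1 CAGCTG. Among all 32851 promoter windows of the table, 16.3% held a CAGCTG and 1.9% held 2 or more. The general form CANNTG, which takes in CAGCTG, was in 8 of 8 member windows and in 72.3% of all. TTTAAA stood in 7 of 8 member windows, against 13.2% of all windows. It began at -29 in Fbxw16 and Fbxw21, -30 in Fbxw15 and Fbxw24, -25 in Fbxw14, -54 in Fbxw19 and -10 in Fbxw18. Fbxw20 lacked TTTAAA and the outer CAGCTG. The form TAATTG of the site bound by NOBOX, an oocyte homeobox factor, was in 0 of 8 member windows and in 8% of all. CAGCTG and TTTAAA were chosen after the letters of these promoters had been seen, all 4 motifs were searched on both strands, and a match is a description of the letters only. Fbxw16 and Fbxw19 held the pair of CAGCTG and a TTTAAA, and so did Fbxw14, Fbxw18, Fbxw21 and Fbxw24. None of the latter passed the test described below. Fbxw20, the only member window without the full set, had no probe set. The presence of the pair and of TTTAAA therefore did not vary among the measured members with a window, and it cannot be set against the responses. The positions of these motifs and the number of CANNTG matches did vary, and whether they go with the responses was not tested.

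**Figure D1:**
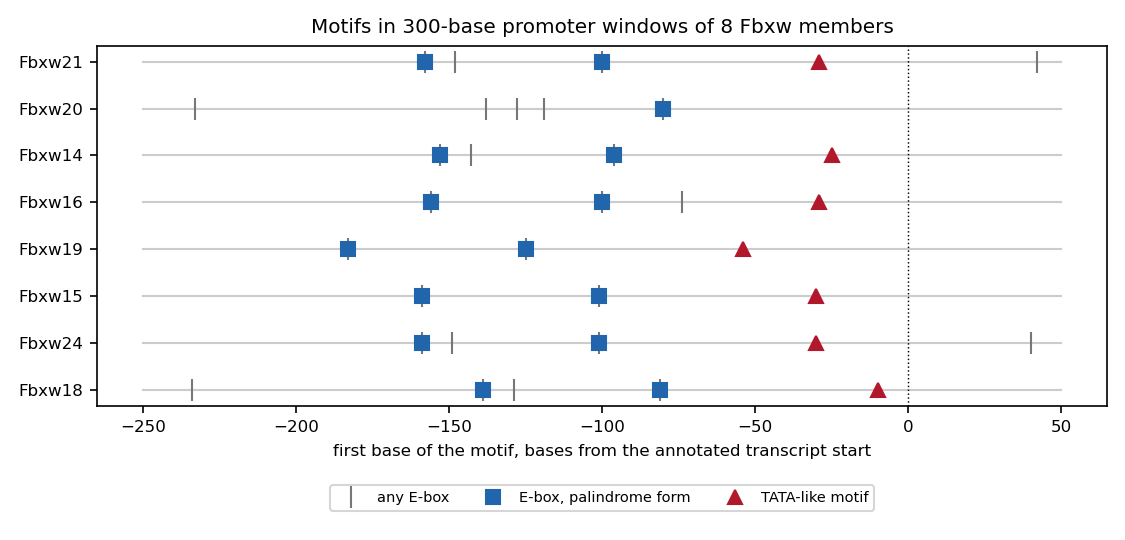
Motifs in the promoter windows of 8 Fbxw members, in their order along chromosome 9. The horizontal axis gives the first base of each motif in bases from the annotated transcript start (dotted line); grey ticks are any E-box, blue squares its palindromic form, red triangles the TATA-like motif. The 2 blue squares and the triangle recur in every row but that of Fbxw20, shifted together in Fbxw19 and Fbxw18.

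The label oocyte was borne out by the defining transcripts. Of 18 oocyte markers 15 were measured, among them Gdf9 at 14.56 ± 0.0256 in KO and 14.63 ± 0.0228 in WT (SD, n = 4 each), and Figla had the lowest mean signal of them, 8.73. Dicer1 itself read 14.26 to 14.36 in KO and 13.04 to 13.31 in WT in its brighter probe set, and 12.11 to 12.38 in KO and 11.39 to 11.79 in WT in the other, so its signal was higher under the knockout label; with the deletion not stated, neither probe set checks it. Array medians lay between 6.35 and 6.43, the brightest probe set of each array at 14.81 to 14.90, and correlations between arrays at 0.9915 to 0.9947 within groups and 0.9797 to 0.9865 between them. The number of arrays limits the precision.

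The comparison asks which transcripts of the oocyte differ when Dicer is lost. Fbxw16 and Fbxw19 fell in KO oocytes, Fbxw16 in both of its probe sets, and 0 members rose. Of 9 member probe sets, 3 (33.3%) fell, where 9.31% of all 45037 probe sets tested fell and 6.82% rose. Counted by gene, with the brightest probe set standing for each, 2 of 8 members (25%) fell and 0 rose, against 12.8% and 8.18% of 18193 genes. With 8 genes these counts do not set the members apart from the rest. In the related lists described below, 30% of NLRP genes, 27.3% of other Fbxw genes, 16.7% of Fbxo and Fbxl genes and 11.1% of SCF genes fell. The list of other Fbxw genes includes Fbxw27, which lies in the same cluster as the members and fell. The test was limma's moderated test with Benjamini-Hochberg adjustment over all probe sets, passed at an adjusted p under 0.05, and "fell" and "rose" are used only of what passed it. At an unadjusted p under 0.05, 5 member probe sets were lower and 0 higher. Counted by gene at that threshold, 4 of 8 members were lower and 0 higher, beside 3648 lower and 2670 higher of all 18193 genes. The median log2 difference, KO minus WT, was -0.23 over the 9 member probe sets and 0.02 over all probe sets. Probe sequences were not used here, so how far probes of one paralogue also bind another was not tested, and the 9 probe sets are not independent of each other.

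Fbxw16 had the largest difference of the members. Its bright probe set, 1439693_a_at, read 13.35, 13.55, 13.45 and 13.47 on the KO arrays, against 14.14, 14.14, 14.02 and 14.10 on the WT arrays. All KO arrays lay below all WT arrays, by far more than the spread within either group. The means were 13.46 ± 0.0827 in KO and 14.10 ± 0.0562 in WT (SD, n = 4 each), a log2 difference of -0.64 ± 0.071 (SE) or 36% less signal (limma adjusted p = 0.000325). The second probe set, 1439694_at, read 7.40, 8.12, 8.09 and 7.45 in KO, against 9.12, 9.02, 8.74 and 9.00 in WT. The KO arrays fell into a lower and a higher pair here, and even the higher pair stayed below every WT array. The means of 7.76 ± 0.395 in KO and 8.97 ± 0.163 in WT differed by -1.21 ± 0.179 (SE), or 56.7% less signal (limma adjusted p = 0.00169). An exact permutation test, two-sided, gave p = 0.0286 in both, the smallest that 4 against 4 arrays can give. In pooled oocytes, fewer oocytes holding a transcript and less transcript in each oocyte cannot be told apart.

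The difference in Fbxw16 was compared array by array with that of the nearest measured members on either side, a choice made after its values were seen. Fbxw16 signal minus Fbxw22 signal was -0.44, -0.31, -0.41 and -0.39 in KO, against 0.22, 0.21, 0.12 and 0.20 in WT. Fbxw16 minus Fbxw19 was 0.03, 0.20, 0.05 and 0.09 in KO, against 0.51, 0.51, 0.45 and 0.53 in WT. Both sets of values separated the groups, with mean shifts of -0.58 and -0.41, and since the level of a probe set depends on its probes, only the shift between groups can be read from them.

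Fbxw19 (probe set 1437316_at) fell by a smaller amount. It read 13.33, 13.36, 13.40 and 13.38 in KO, against 13.63, 13.63, 13.57 and 13.57 in WT, with no overlap. The means of 13.37 ± 0.0326 in KO and 13.60 ± 0.0342 in WT (SD, n = 4 each) differed by -0.23 ± 0.0618 (SE), or 14.9% less signal (limma adjusted p = 0.0306). This call was narrow. It ended whichever single array was left out, KO array 1, 2, 3 or 4 or WT array 1, 2, 3 or 4, at adjusted p of 0.0502 to 0.0778, and also under cyclic loess scaling (adjusted p = 0.0966) and in a fit on the 4 mice that share a title number, with that number as a fixed block (adjusted p = 0.427). The differences in these settings were -0.26 to -0.17.

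Fbxw18 and Fbxw24 did not pass, although their groups did not overlap. Fbxw18 (1439721_at) read 13.20, 13.44, 13.36 and 13.30 in KO, against 13.50, 13.54, 13.74 and 13.62 in WT, a log2 difference of -0.27 ± 0.0831 (SE, adjusted p = 0.0524). The groups came close to each other, at 13.44 in KO and 13.50 in WT. Fbxw24 (1454911_at) read 13.99, 13.98, 13.98 and 13.97 in KO, against 14.18, 14.14, 14.16 and 14.11 in WT, a difference of -0.17 ± 0.0602 (SE, limma adjusted p = 0.0948). The Fbxw24 values hardly varied within a group, with SDs of 0.0103 in KO and 0.0301 in WT. With a variance that follows the signal level, in place of 1 prior variance for all probe sets, both passed, at adjusted p of 0.0171 for Fbxw18 and 0.00435 for Fbxw24. This brought the member probe sets that fell to 5, and the share of all probe sets that fell in that setting is not given here. Fbxw18 also passed with median centring (0.0251), array weights (0.0396), a filter on dim probe sets (0.0481) and the title number as a random block (0.0477). Median centring moved the median difference of all genes to -0.03. Fbxw18 did not pass with quantile normalisation (0.0789), cyclic loess scaling (-0.21, 0.135) or the title number as a fixed block (-0.15, 0.678). Nor did it pass with any single array left out (0.0506 to 0.127).

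Fbxw22, Fbxw13, Fbxw21 and Fbxw14 did not pass. Fbxw22 (1437703_at) read 13.80, 13.86, 13.86 and 13.85 in KO, against 13.92, 13.93, 13.90 and 13.90 in WT. The groups did not overlap, but the difference was only -0.07 with a 95% interval of -0.20 to 0.07. Fbxw13 (1443298_at) was the most variable member among the brighter probe sets, with 11.43, 12.00, 11.28 and 11.78 in KO, against 12.01, 11.96, 11.73 and 12.25 in WT. Its groups overlapped, and its difference of -0.36 had an interval of -0.73 to 0.01 (limma adjusted p = 0.188). Fbxw21 (1441569_at) read 13.29, 13.41, 13.44 and 13.39 in KO, against 13.37, 13.37, 13.41 and 13.30 in WT. The interval of its signal difference, -0.13 to 0.17, does not take in the -0.64 of the bright Fbxw16 probe set. The brightest probe set of each array read 14.81 to 14.90. How closely signal follows transcript amount at such bright levels was not tested. Fbxw14 (1427575_at) read 9.57, 9.83, 9.71 and 9.71 in KO, against 9.69, 9.43, 9.76 and 9.74 in WT, a difference of 0.05 with an interval of -0.16 to 0.26. The probe set shared by Fbxw14 and Fbxw28 read 12.40 to 12.53 in KO and 12.42 to 12.59 in WT, and its interval was -0.18 to 0.13. In all, 6 of 9 member probe sets (66.7%) had every KO array below every WT array, where 11.5% of all probe sets did.

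**Figure D2:**
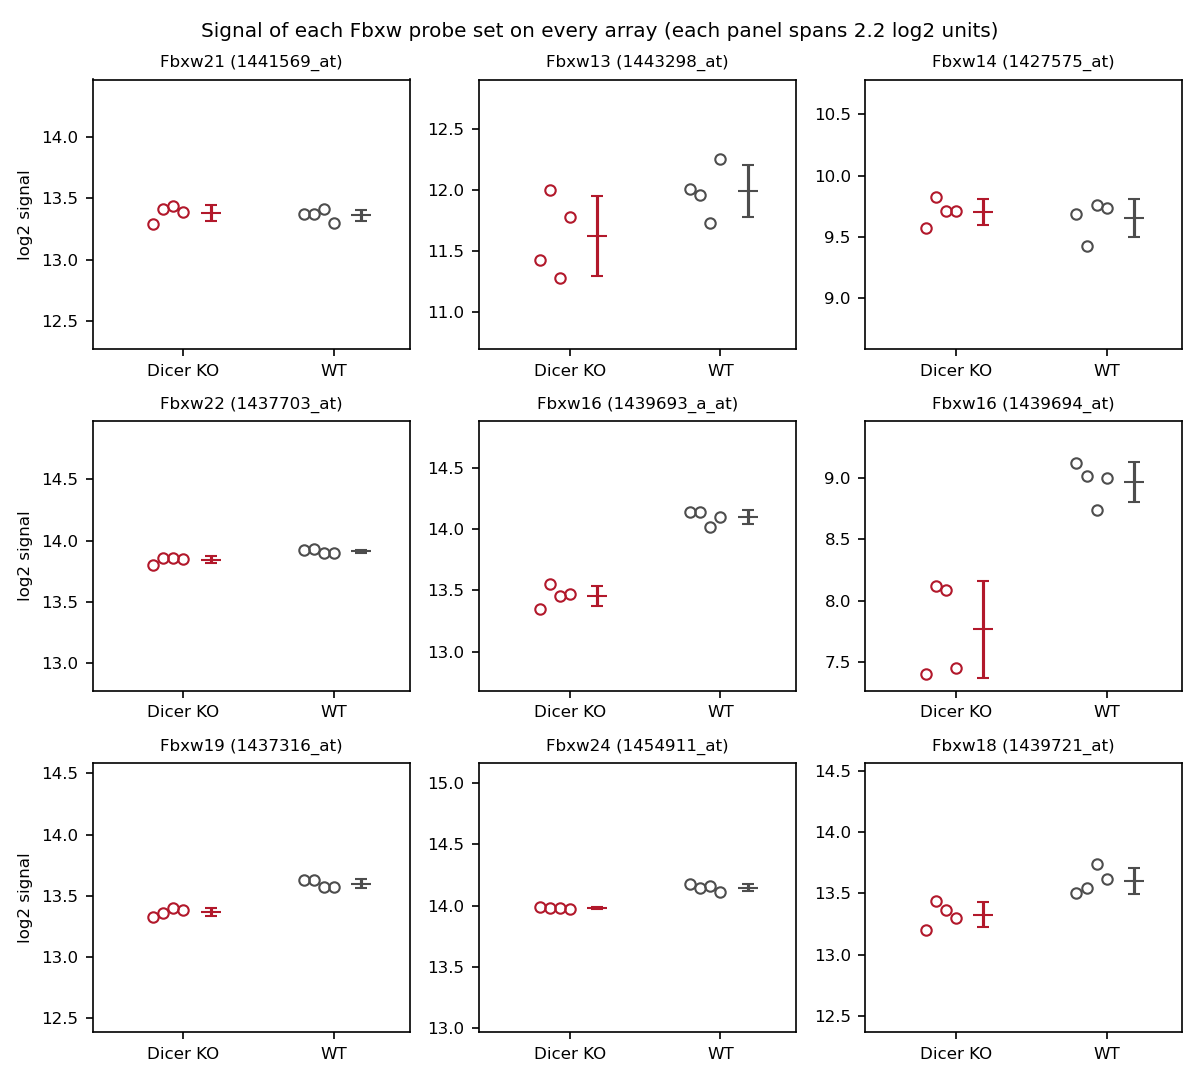
Log2 signal of the 9 Fbxw member probe sets on the 4 KO arrays (red, left) and the 4 WT arrays (grey, right), in gene order along the chromosome. Circles are arrays, bars the mean and SD, and each panel spans the same range of 2.2 log2 units around its own centre, so distances but not heights can be compared between panels. The 2 Fbxw16 panels show the widest gaps between groups.

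The differences were not spread evenly along the row. Including non-members and probe sets with several symbols, 12 probe sets of the cluster could be placed. All 4 at places 1 to 5 (Fbxw21, Fbxw13, Fbxw14 and the shared Fbxw28 probe set) had overlapping groups, with differences of -0.36 to 0.05. All 8 at places 6 to 15, from Fbxw22 to Fbxw27, had every KO array below every WT array, with differences of -1.21 to -0.07. Over all probe sets tested, 11.5% had every KO array below every WT array. Under cyclic loess scaling the member differences at these places were smaller. Fbxw22 then differed by -0.01, Fbxw24 by -0.11 and Fbxw16 by -0.58 and -1.14. Whether the groups stay apart in that setting was not tested. The division at place 6 was set after the values had been seen and was not tested.

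Of the non-members at those places, Fbxw26 had no probe set, and the 2 probe sets of the others fell. A probe set that lists Fbxw23 and Fbxw25 read 9.17, 9.53, 9.19 and 9.20 in KO, against 9.86, 9.80, 9.60 and 9.84 in WT, a difference of -0.50 ± 0.102 (SE, limma adjusted p = 0.00907). Fbxw27 read 12.14, 12.26, 12.17 and 12.17 in KO, against 12.44, 12.43, 12.55 and 12.58 in WT, a difference of -0.32 ± 0.0695 (SE, adjusted p = 0.013). The groups did not overlap in either, and both differences were larger in size than that of Fbxw19.

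Among the 10 nearest measured genes on either side, 20 in all, 1 fell, 1 rose and 18 did not pass, with a median difference of 0.03. Over all genes 12.8% fell and 8.18% rose, and with 20 genes these counts do not set the neighbours apart from the rest. Elp6, an Elongator subunit gene the farthest of the measured genes after the cluster, fell (6.47 ± 0.121 in KO and 7.09 ± 0.124 in WT, SD, n = 4 each, limma adjusted p = 0.00146), and the transcribed pseudogene 3000002C10Rik, the second measured gene after it, rose 2.64-fold (8.82 ± 0.115 in KO and 7.43 ± 0.209 in WT, limma adjusted p = 5.5e-05). The groups of 17 of the 20 overlapped. Plxnb1 and Spink8, which flank the cluster, differed by -0.11 and 0.01.

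**Figure D3:**
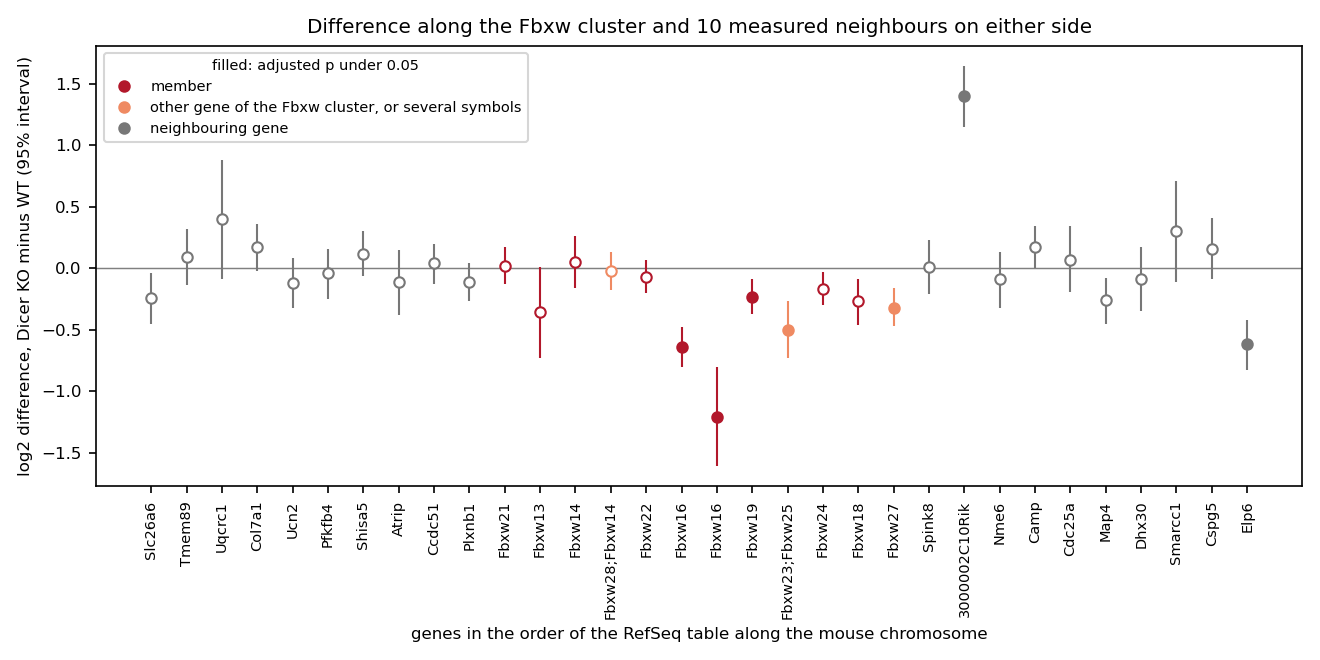
Log2 difference, KO minus WT, of probe sets along the Fbxw cluster (red members, orange other cluster genes or probe sets with several symbols) and of 10 measured neighbours on either side (grey), in RefSeq gene order. Bars are 95% intervals and filled points passed at adjusted p under 0.05. From Fbxw22 to Fbxw27 every point is below 0, with Fbxw16 lowest at -1.21 and -0.64.

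Some mice of both genotypes share the first number of their title code, whose meaning the labels do not give. Between the mice numbered 24, Fbxw16 differed by -0.59 and -0.99 in its 2 probe sets and Fbxw19 by -0.27. Between the mice numbered 27 the differences were -0.67 and -1.58 for Fbxw16 and -0.25 for Fbxw19. In each of these pairs 7 of the 9 member probe sets were lower in the KO mouse, Fbxw13 by only 0.01 between the mice numbered 24. These mice are part of the 8 arrays, over which 7 member probe sets also had a negative difference, so the pairs are no separate support. The share over all probe sets in the pairs is not given here. Fbxw18 differed little between the mice numbered 24 (-0.06) and more between those numbered 27 (-0.24).

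Some markers of somatic cells moved with genotype in the same direction. Of 19 measured markers of cumulus and granulosa cells, 10 fell (52.6%, against 12.8% of all genes) and 0 rose in limma (11 and 0 at an unadjusted p under 0.05). The other 9 did not pass, among them Amh (-0.02), Foxl2 (-0.01), Kitl (-0.09) and Star (-0.09). The summed linear signal of the 19 was 6538 to 8676 in KO and 10161 to 15902 in WT. Nr5a2 (log2 -0.44) and Greb1 (-0.68) had the lowest p among them, and Tnfaip6, which expanding cumulus cells make, was near the floor of the arrays at 3.36. The summed linear signal of the 8 Fbxw members was 74161 to 80638 in KO and 91011 to 91851 in WT. That of the 15 oocyte markers, at 203698 to 212776 in KO and 201306 to 208746 in WT, overlapped. Markers of other ovarian and blood cells summed to 1560 to 1751 in KO and 1705 to 1835 in WT, with 2 of 14 lower (Tek and Kdr) and 1 higher (Cd68). Whether somatic transcripts have a part in the Fbxw differences was not tested.

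Among the oocyte markers, 2 fell and 2 rose. Figla, named above for its E-box sites, fell, with 8.42 ± 0.187 in KO and 9.04 ± 0.259 in WT (SD, n = 4 each, log2 difference -0.61, limma adjusted p = 0.0153). Nobox read 13.44 ± 0.0578 in KO and 13.26 ± 0.0915 in WT and did not pass (limma adjusted p = 0.134). Mos, which encodes the kinase behind metaphase arrest, fell by 0.36 on the log2 scale, Oog4 rose 1.36-fold and Ddx4, the germ cell RNA helicase, rose 1.86-fold. Whether any of these bears on the Fbxw genes was not tested.

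Of the Fbxw genes outside the member list, 11 were measured by a probe set with 1 symbol. Of these, 3 fell and 0 rose (4 and 0 at an unadjusted p under 0.05), with a median difference of -0.16. The probe set that lists Fbxw23 and Fbxw25, which fell, is not counted here. Fbxw4, known as dactylin, fell to 11.78 ± 0.06 in KO, against 12.43 ± 0.0538 in WT (SD, n = 4 each, log2 difference -0.65, limma adjusted p = 0.000227), a shift of the size of that in bright Fbxw16. Fbxw17, on chromosome 13, fell by 0.39 on the log2 scale, and Fbxw27, a gene of the cluster, was the remaining one. Fbxw10 differed by -0.76, but its arrays varied widely and the groups overlapped (adjusted p = 0.0606). The widely used adaptors did not pass either. Btrc, beta-TrCP, which recognises phosphorylated degrons, differed by 0.02, its paralogue Fbxw11 by 0.19 with a 95% interval of -0.10 to 0.48, and Fbxw7, the adaptor for cyclin E and Myc, by -0.06. The dimmer probe sets of Btrc (-0.31 to 0.10) and Fbxw11 (0.01 to 0.25) did not pass. Fbxw2 (-0.24), Fbxw5 (-0.16), Fbxw8 (-0.13), which works with Cul7, and Fbxw9 (0.17) did not pass.

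Of 27 measured genes of the SCF core, its ubiquitin-conjugating enzymes, the NEDD8 pathway and the COP9 signalosome, 3 rose and 3 fell (11.1% each), with a median of -0.09, shares near the 8.18% of all genes that rose and the 12.8% that fell. Ube2r2, a CDC34-type conjugating enzyme, rose 2.73-fold, with 11.13 ± 0.0594 in KO and 9.68 ± 0.303 in WT (SD, n = 4 each), and Ube2f, a NEDD8-conjugating enzyme, rose 2.23-fold. Uba3, the catalytic subunit of the NEDD8-activating enzyme, fell to 10.43 ± 0.186 in KO, against 11.24 ± 0.139 in WT, and Cand1, which exchanges F-box proteins on Cul1, fell by 0.40 on the log2 scale. The Cul1 scaffold itself read 13.59 ± 0.119 in KO and 13.80 ± 0.0865 in WT (limma adjusted p = 0.133), and Skp1, the F-box partner, 13.96 ± 0.018 in KO and 14.03 ± 0.0302 in WT (adjusted p = 0.532).

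Among 48 Fbxo and Fbxl genes, F-box genes without WD40 repeats, 8 fell and 5 rose, with a median of 0.01. Fbxo15 (-1.20) and Fbxl2 (-1.06) fell with the lowest p, and Fbxo16 (1.71) and Fbxo27 (0.36) rose with the lowest p. The NLRP genes, another family that has multiplied in rodents and is transcribed in oocytes, gave 3 lower and 1 higher of 10 measured, with a median of -0.05. Nlrp4c rose 1.93-fold, while Nlrp9a (-0.24) and Nlrp4a (-0.22) fell with the lowest p, though leaving out single arrays left between 0 and 2 NLRP genes that fell. The member median, with 1 probe set a gene, was -0.20, beside 0.00 over all 18193 genes. Differences between the members and these lists were not tested.

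**Figure D4:**
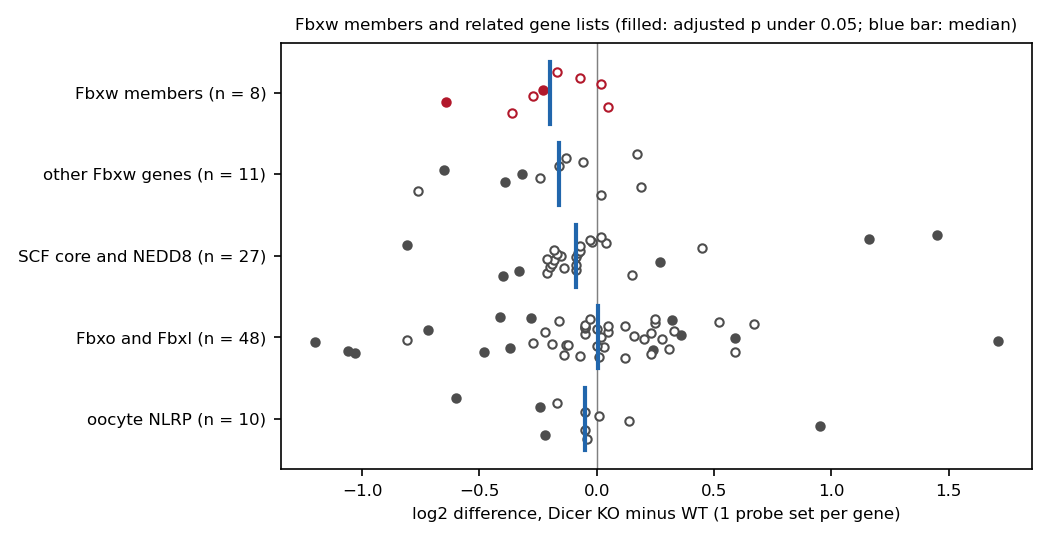
Log2 difference, KO minus WT, for the Fbxw members (red) and 4 related lists (grey), 1 probe set per gene. Filled points passed at adjusted p under 0.05 and blue bars are medians. The 8 members lie between -0.64 and 0.05, and the 48 Fbxo and Fbxl genes between -1.20 and 1.71. The dimmer probe set of Fbxw16, at -1.21, is not shown, and spans of lists of unlike size cannot be compared directly.

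The genes whose signal followed Fbxw16 most closely over the 8 arrays were the clone gene A530021J07Rik (Pearson r = 0.996), Rpn1 (0.996), a subunit of the oligosaccharyltransferase, Pex7 (0.995), the import receptor of peroxisomes, Cd55 (0.994) and Sclt1 (0.994). All 5 fell in KO, from -0.43 for Cd55 to -2.95 for A530021J07Rik. Their deviations from the group means also ran with those of Fbxw16, at r = 0.80 to 0.94. For Fbxw24, the member with the highest mean signal, the closest were Myl12a (r = 0.995), a myosin light chain gene, the clone genes 2310039H08Rik (0.992) and 2900009J06Rik (0.991), Snw1 (0.992), a splicing and transcription factor, and Ikzf2 (0.991), the zinc finger factor Helios, all lower in KO. They were picked as the highest of 18193 genes over the same 8 arrays, which share the genotype contrast, so these values describe likeness only.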

How the data were processed

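The deposited table holds log2 signals of 45101 probe sets on 8 arrays (Affymetrix MOE430 v2), made by the authors. RMA and Partek are the tools in the submitters' processing notes, without versions. RMA adjusts for background, brings the arrays to one distribution and condenses each probe set to 1 value, which shrinks differences of dim probe sets. No column of other samples was present, no values were missing and no arrays were identical. Symbols came from the platform annotation: 34945 probe sets with 1 symbol and 932 with several; gene order and promoters came from RefSeq, GRCm38.p6. No build is named for the arrays, so coordinates are given for the promoters only.

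KO was compared with WT in limma 3.58.1 (R 4.3.3; lmFit, eBayes, no covariates) over the 45037 probe sets that are not among 64 controls, with Benjamini-Hochberg adjustment and a threshold of 0.05; the fit was tested on simulated data. Errors are SDs over 4 arrays or moderated SEs. Exact permutation tests ran over 70 arrangements. A gene was represented by its brightest probe set with 1 symbol. Promoters were compared by pairwise global alignment with free end gaps.

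Members, lists and tests were chosen with earlier results of these data known. Named genes were every member probe set, all other Fbxw genes, the 2 genes with the lowest p in each direction of each list, neighbours past the threshold and the 5 genes most like Fbxw16 and Fbxw24. Fbxw27 and the other genes named beside a count complete it or were picked once values had been seen. Each array is a separate mouse per the labels.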

Additional observations from a re-analysis of the deposited data

Results flagged for a closer look

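In 20 sets of 4 arrays (10 probe sets in each genotype), 1 array lay far enough from the other 3 of its group for its gap, as a share of the group's range, to exceed the critical value of Dixon's test at the 95% level. This was KO array 1 for Fbxw22, at 13.80 against 13.85 to 13.86 on the other KO arrays. Chance alone gives about 1 such set in 20.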

How the results depend on the processing

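The fall of Fbxw16 kept its direction under every alternative run, and its call in 1439694_at under all of them. In 1439693_a_at the call ended only in the fit on the 4 mice of both genotypes that share a title number, with that number as a fixed replicate block (log2 difference -0.63, adjusted p = 0.101). That fit rests on 4 arrays, and the Fbxw19 call ended in it too (-0.26, adjusted p = 0.427). Its counts of genes or probe sets past the threshold were 1 lower for the Fbxw members, 1 lower and 2 higher for the SCF list, 0 lower for other Fbxw genes, 0 lower and 0 higher for NLRP genes, and 2 lower and 0 higher for Fbxo and Fbxl genes. The labels do not say what the title number means, and the deviations of the arrays that share one correlated at -0.28 (number 24) and 0.12 (number 27), so whether it pairs the mice is not known. With a variance trend 5 member probe sets fell, in place of 3. Cyclic loess left 0 NLRP genes and 5 Fbxo and Fbxl genes lower, while over all genes 1864 fell, in place of 2330. With median centring 2530 of all genes fell. For the fixed block, the variance trend and the fits without single arrays, shares over all probe sets are not given here. Leaving out single arrays gave 2 member probe sets lower and 0 higher each time, 0 to 2 NLRP genes lower, 5 to 8 Fbxo and Fbxl genes lower and 3 to 6 higher. Over all alternatives of the 10 probe sets, 153 values kept their side of the threshold, 11 lost the call and 6 gained it. The causes were not tested. The differences of Fbxw14, Fbxw21 and the shared Fbxw28 probe set, none of which passed, changed sign in some settings. With 4 arrays a group, the size of a difference alone did not set the call: Fbxw19 passed at -0.23, while Fbxw18 at -0.27 and the more variable Fbxw13 at -0.36 did not.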
